A study of Mus musculus with 15 samples.

Results

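The genes described here are the collagens, laminins and integrins measured in mouse embryonic stem cells (ESCs) that lost the pluripotency factor OCT4. They were taken by symbol from the 16772 genes of the deposited normalised matrix, as every symbol starting with Col, Lama, Lamb, Lamc, Itga or Itgb that follows the naming of a chain. This gave 63 genes, of which 31 were collagens, 9 laminins and 20 integrins. The other 3, Itgb1bp1, Itgb1bp2 and Itgb3bp, share the prefix but encode proteins that bind integrin tails or are named after one, and they encode no chain. Another 23 genes with such names were in the count files but outside the matrix, with at most 25 counts in any library (among them Col4a3, Col4a4, Lama2, Lamc3, Itga2 and Itgb2).

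The study compared a slow and a fast way to remove OCT4, by ribosomal RNA-depleted RNA-seq. CreER cells (Oct4Fl/-; CAG CreER, mixed 129SV and C57BL/6 strain) received 500 nM 4OHT, which switches on Cre and deletes the single intact Oct4 allele, and were sampled untreated (0 h) and at 12, 18, 24 and 36 h, with 2 libraries per time. O4AID cells (Oct4-/-; TetOFF Oct4; CAG Oct4AID; CAG Tir1, 129SV strain) received 500 μM IAA, an auxin that sends the degron-tagged OCT4 protein to the proteasome, and were sampled untreated and at 1.5, 6, 10 and 24 h, with 1 library per time. Before IAA, O4AID cells depend on tagged OCT4 made from the constitutive CAG promoter, with the TetOFF copy silenced by doxycycline, and all CreER libraries start from a single Oct4 copy. Both lines grew without feeders in N2B27 medium with PD03, Chiron and LIF on gelatin. For its PCR and blot time courses of CreER cells, the paper names a switch to serum medium with LIF when 4OHT was added. It does not say whether the sequenced CreER cells had that switch. Nothing states whether the paired libraries came from separate cultures, so p-values measure only the spread between these libraries, which may be technical.

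Libraries held 21655083 to 30774618 counts in CreER cells and 40537353 to 48719670 in O4AID cells. Pou5f1, the gene for OCT4, had 327 ± 3.92 CPM (SD, n = 2; counts scaled to library size) in untreated CreER cells and 121 ± 8.59 at 36 h (log2 fold change -1.43, SE 0.05, adjusted p = 4.1e-19, edgeR). O4AID cells had 717 CPM at 0 h and 601 at 24 h, and since IAA removes the protein, this RNA does not check the treatment. Summed over 8 naive ESC markers, untreated cells had 2897 and 3002 CPM in CreER cells and 5986 CPM in O4AID cells, so the labelled cell type was seen in both. The 63 genes took 0.270 and 0.278% of all counts in untreated CreER libraries and 0.316% in both 36 h libraries. Their share in O4AID cells was 0.233% at 0 h, 0.230% at 1.5 and 6 h, 0.271% at 10 h and 0.327% at 24 h.

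Collagens are triple-helical proteins of the extracellular matrix, and laminins are trimers of an alpha, a beta and a gamma chain. Laminins and the sheet-forming type IV collagen are the core of the basement membrane, the thin matrix on which epithelia rest. Integrins are pairs of an alpha and a beta subunit that span the cell membrane and hold the cell to that matrix. In the peri-implantation mouse embryo the first basement membrane forms between the epiblast and the primitive endoderm, and the parietal endoderm is a classic source of laminin and type IV collagen.

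Promoter windows from 250 bases before to 50 bases after the annotated start were on hand for 44 of the 63 genes (RefSeq, GRCm38.p6; 48 windows). Those of Col4a1, Col4a2, Lamb1 and Lama5 are printed because these 4 basement membrane chains rose in CreER cells and were past 2-fold higher in O4AID cells. Col4a1 and Col4a2, which encode the 2 chains of the common type IV collagen trimer, lie head to head on chromosome 8. Their annotated starts are 21 bases apart and their windows share 78 bases. The windows are chr8:11312777-11313076 on the minus strand for Col4a1, chr8:11312555-11312854 on the plus strand for Col4a2, chr12:31265043-31265342 on the plus strand for Lamb1 and chr2:180225810-180226109 on the minus strand for Lama5. Each is written 5′ to 3′ on the strand of its gene, and capitals mark a GC box (GGGCGG) or a CCAAT box (CCAAT) on either strand.
Col4a1: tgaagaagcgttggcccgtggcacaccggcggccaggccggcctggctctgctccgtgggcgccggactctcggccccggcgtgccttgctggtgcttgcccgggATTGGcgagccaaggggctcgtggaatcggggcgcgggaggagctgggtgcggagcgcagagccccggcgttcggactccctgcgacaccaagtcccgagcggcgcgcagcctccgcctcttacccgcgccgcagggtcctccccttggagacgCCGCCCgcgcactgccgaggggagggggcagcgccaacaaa
Col4a2: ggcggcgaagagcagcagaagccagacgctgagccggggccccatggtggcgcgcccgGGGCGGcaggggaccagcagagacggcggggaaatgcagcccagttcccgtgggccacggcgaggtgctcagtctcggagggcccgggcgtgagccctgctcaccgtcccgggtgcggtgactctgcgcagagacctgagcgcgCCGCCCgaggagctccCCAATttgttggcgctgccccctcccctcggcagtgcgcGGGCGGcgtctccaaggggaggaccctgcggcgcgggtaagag
Lamb1: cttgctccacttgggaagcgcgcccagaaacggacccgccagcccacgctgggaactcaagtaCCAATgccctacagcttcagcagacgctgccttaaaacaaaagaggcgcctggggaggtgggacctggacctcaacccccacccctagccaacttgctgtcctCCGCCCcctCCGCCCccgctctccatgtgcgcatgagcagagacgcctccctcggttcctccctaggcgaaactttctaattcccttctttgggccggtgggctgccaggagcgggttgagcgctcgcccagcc
Lama5: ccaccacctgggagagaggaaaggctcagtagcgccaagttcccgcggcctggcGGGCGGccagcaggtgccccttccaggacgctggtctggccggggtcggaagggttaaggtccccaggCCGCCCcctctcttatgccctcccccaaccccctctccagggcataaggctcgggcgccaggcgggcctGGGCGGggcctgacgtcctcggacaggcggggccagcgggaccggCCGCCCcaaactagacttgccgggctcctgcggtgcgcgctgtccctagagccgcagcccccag

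Matches to the GC box numbered 1, 3, 2 and 4 in the windows of Col4a1, Col4a2, Lamb1 and Lama5, and Col4a1, Col4a2 and Lamb1 each held 1 CCAAT box. Searched on both strands, the GC box was in 60.4% of the members' windows and in 35.7% of all 32851 windows, and the CCAAT box in 29.2% and 37.4%. The octamer ATGCAAAT, a sequence that OCT4 is known to bind, was in 1 of the 48 members' windows (2.08%) and in 1.74% of all windows, and in none of the 4 printed. A GC box on the minus strand ends in letters that a CCAAT box can share, so the 2 motifs may overlap. These are matches of letters in a short window and no measure of binding.

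In untreated cells the members ran from very high to barely detected, and the 2 lines differed. Per kilobase of exon, Itgb1, the beta subunit shared by most integrins for matrix, was the highest member in CreER cells at 128 ± 1.44 RPKM (CPM per kilobase of exon; SD, n = 2). Col18a1, a basement membrane collagen whose end fragment is endostatin, followed at 58.2 ± 3.54, then the laminin gamma chain Lamc1 at 37.5 ± 0.558. Itga6, Lama5 and Itga3 came next at 21.7 ± 0.325, 21.3 ± 0.223 and 21.1 ± 0.843 RPKM, and these 3 lie within the spread of their libraries. In the single untreated O4AID library the order was Lamc1 at 73.1, Itgb1 at 51.6, Itga6 at 45.0, Lama1 at 27.4 and Lama5 at 21.1 RPKM.

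Several chains were far apart between the untreated lines. On the scale log2(CPM + 1), with all 15 libraries scaled together, O4AID minus CreER was 3.01 for Itga8, 1.92 for Lamb2 and 1.82 for Lama1, and -3.93 for Itga9, -2.46 for Itga1, -2.17 for Col18a1 and -2.09 for Itga3. Lama5 and Itga5 were level, at -0.01 and -0.03. Itgb8 had 0 counts in all 5 O4AID libraries, where a count of 0 allows up to 3 counts, or 0.0616 to 0.0740 CPM, against 32 to 68 counts in each CreER library. Strain, genotype and the doxycycline given to O4AID cells differ together between the lines and cannot be told apart, and 1 untreated O4AID library gives no test. Genes of chromosome 8 as a whole were lower in O4AID cells, with a median of -0.34 against 0.23 over all chromosomes (genes of at least 5 CPM), and beside that median stand Col4a1 at -0.80, Col4a2 at -0.66 and Itgb1 at -1.31, all 3 on chromosome 8.

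After 4OHT most of the collagens and a part of the laminins and integrins rose against 0 h in CreER cells, by modest folds. The only untreated CreER libraries are those of 0 h, so loss of Oct4, 4OHT, Cre activity, time in culture and any change of medium cannot be told apart. Counts were tested with edgeR's quasi-likelihood test over 18969 genes, with Benjamini-Hochberg adjustment, and an adjusted p under 0.05 counted as a call. All 63 members passed the filter on low counts. At 12 h only Lama5 was called (1 of 63; 0.395% of all genes tested were called). At 18 h 12 members were called, all 12 higher (8.51% of all genes), and the same 12 genes were called higher at 24 h and at 36 h: Lama5, Lamb2, Col4a1, Col4a2, Col18a1, Col2a1, Col5a3, Col9a2, Col12a1, Itga1, Itga3 and Itgb4. At 24 h 26 members were called, 20 higher and 6 lower (21.6% of all genes). Dropping the first 24 h library gave 16 calls, and dropping the second gave 17.

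By 36 h 39 of the 63 members were called, against 36.6% of all genes tested. Among the 15851 tested genes of the matrix, from which the members came, the share called was higher, at 41.4%. It was 9.94% at 18 h, 24.6% at 24 h and 16.8% from 24 to 36 h. Of the 39 members called at 36 h, 31 were higher and 8 lower, where 19.4% of all genes were called higher and 17.2% lower. All 39 had both 36 h libraries on the called side of both 0 h libraries. This is no separate support, since the calls rest on the same libraries. Called or not, 39 of the 63 members lay above and 11 below in this way. The share of all genes that lay apart in this way was not counted, so these counts have no background. The collagens gave 19 higher and 1 lower of 31 (median log2 fold change 0.60), the integrins 9 higher and 4 lower of 20 (0.21) and the laminins 3 higher and 3 lower of 9 (0.08), beside a median of 0.01 over all genes tested. Scaling by total counts alone gave 27 higher and 8 lower, turned the laminin median to -0.0041 and moved the share of higher calls among all genes from 53.1 to 36.0%. From 24 to 36 h 19 members were called, 13 higher and 6 lower (14.7% of all genes). Dropping the second 24 h library gave 7 calls and dropping the second 36 h library gave 12, and the split was 7 higher and 6 lower under total-count scaling, which moved the median of all genes to -0.10 and the share of higher calls among all genes from 55.4 to 17.6%. As these are bulk libraries, fewer cells of a type and less RNA per cell cannot be told apart.

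**Figure D1:**
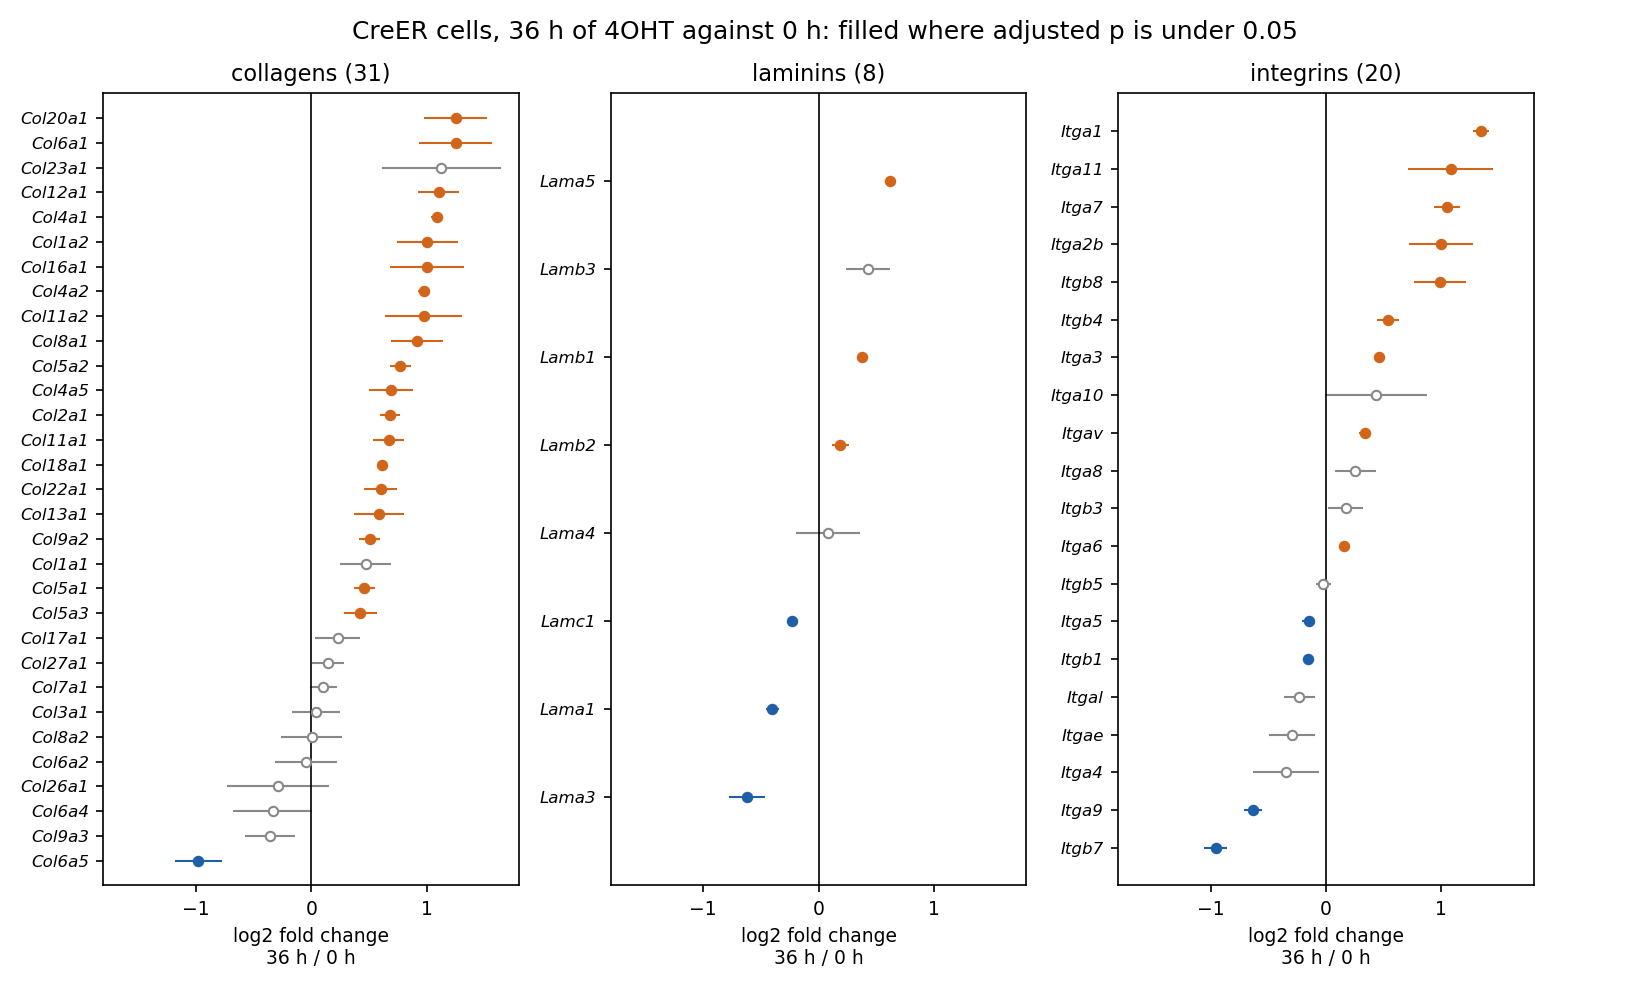
Log2 fold change from 0 to 36 h of 4OHT in CreER cells (x axis) for 31 collagens, 8 laminins and 20 integrins, as points with bars of 1 SE from edgeR (2 libraries per time). Filled points have an adjusted p under 0.05; Itga1 is the highest integrin at 1.34, Col6a5 the lowest collagen at -0.98, and the laminins split into both directions.

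In O4AID cells no member was past 2-fold by 6 h and 14 were by 24 h. The only untreated O4AID library is that of 0 h, so loss of OCT4, IAA, Tir1 activity and time in culture cannot be told apart in these libraries. With 1 library per time there is no test, so changes are log2 ratios of CPM + 1 with 95% counting intervals, and a member counts as past 2-fold at an absolute log2 of 1 or more. This scale understates the change of low genes. None of the 63 was past 2-fold at 1.5 h (0.0427% of 16399 genes of the matrix were) or at 6 h (0.957%). At 10 h 5 were, 4 higher and 1 lower (2.2% of genes), and at 24 h 14 were, 11 higher and 3 lower (7.0% of genes, 4.06% higher and 2.95% lower). The 11 were Col4a1, Col4a2, Col18a1, Col5a2, Col5a3, Col11a1, Col16a1, Lama5, Lamb1, Lamb2 and Itga1, and the 3 lower ones Col1a1, Itga8 and Itgb3. By family, 7 of 31 collagens were higher and 1 lower (median 0.14), and 3 of 9 laminins were higher. Of 20 integrins 1 was higher and 2 lower, and their median was -0.15, unlike the rise in CreER cells. The median over the matrix genes was -0.01. Each of the 11 was also called higher at 36 h in CreER cells, which is 100.0% of the O4AID members and 35.5% of the 31 CreER members. Over all genes, 350 of the 603 that were past 2-fold higher in O4AID cells and tested in CreER cells were called higher there (58.0%). Of the 11, the 36 h calls of Lamb2 and Col16a1 were lost in 13 and 3 of 16 alternative fits. A pseudocount of 5 CPM left 8 members past 2-fold at 24 h, and one of 0.1 CPM gave 21. 14 members had under 50 counts in both the 0 h and 24 h O4AID libraries, so their ratios say little.

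**Figure D2:**
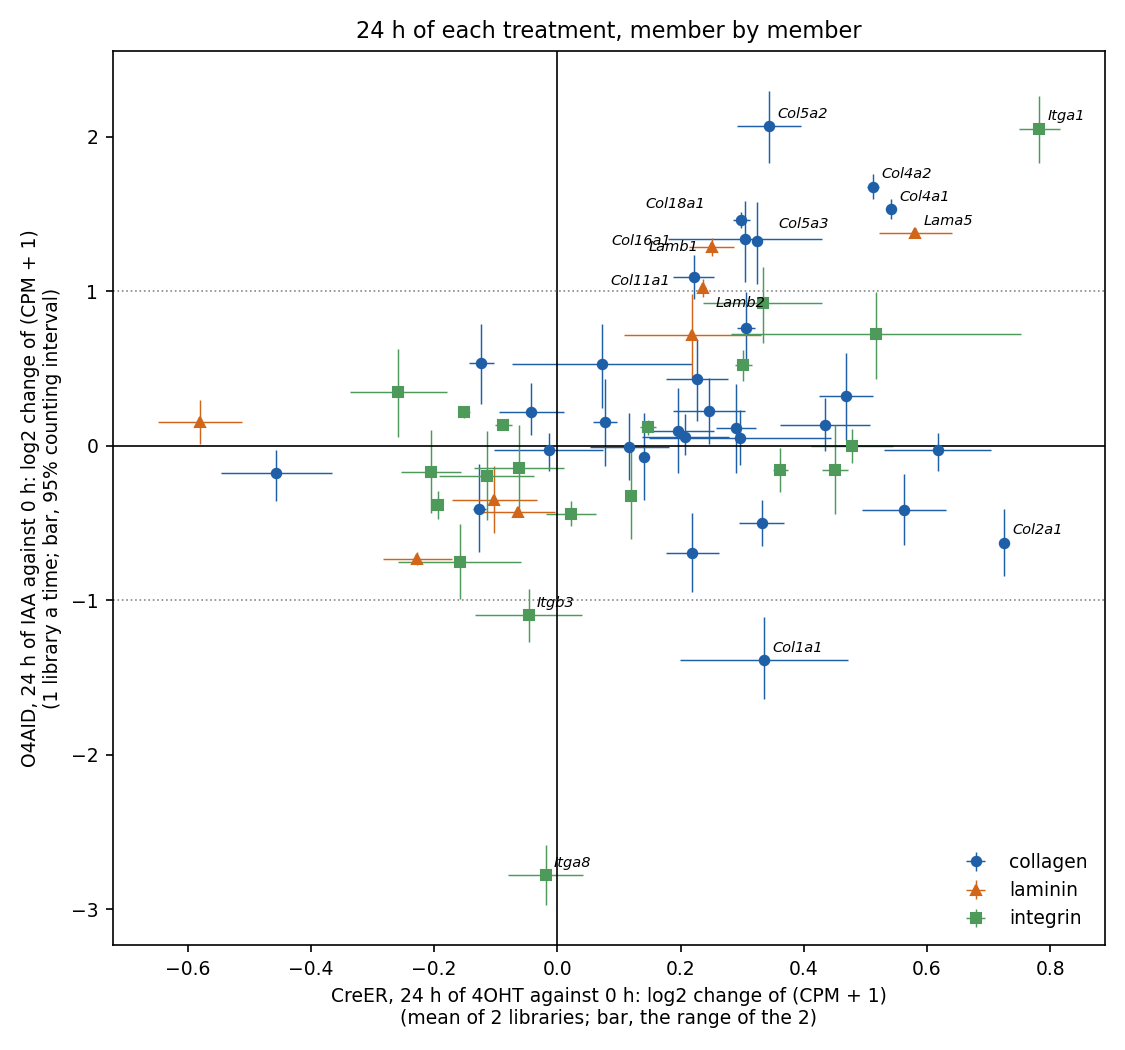
Log2 change of CPM + 1 after 24 h of 4OHT in CreER cells (x axis, mean of 2 libraries, bar spanning both) and after 24 h of IAA in O4AID cells (y axis, 1 library, bar the 95% counting interval), 1 point per collagen, laminin or integrin; dotted lines mark 2-fold. Itga1, Col5a2, Col4a1, Col4a2 and Lama5 lie high at the right, Itga8 lies at -2.78 on the O4AID axis and near 0 on the CreER axis, and the axes differ in range. Equal hours of treatment are unequal times since loss of OCT4 in these lines.

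Among the laminin alpha chains, Lama5 rose while Lama1 fell. Lama5 encodes the alpha chain of laminin-511, a matrix on which ESCs grow well, and lies at chr2:180176373-180225859 (GRCm38). In CreER cells its level was 251 and 247 CPM at 0 h, 289 and 294 at 12 h, 339 and 335 at 18 h, 358 and 389 at 24 h and 368 and 396 at 36 h. Every treated library was above both untreated ones, and the 24 and 36 h libraries overlapped. By edgeR the log2 fold change was 0.23 at 12 h with an adjusted p of 0.012, 0.44 at 18 h with 1.4e-07, 0.58 at 24 h with 1.3e-10, and 0.62 (SE 0.04) at 36 h with 8.5e-12. In O4AID cells the level was 226, 239.7, 251, 359.9 and 588 CPM at 0, 1.5, 6, 10 and 24 h. It stayed close to the start until 6 h and was 1.38 higher on the log2 scale at 24 h (interval 1.35 to 1.41).

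Lama1, the alpha chain of laminin-111 and the main one of the early embryo's basement membranes, lies at chr17:67697265-67822645. Its CreER levels were 75.0 and 74.7 CPM at 0 h, 72.6 in both libraries at 12 h, 72.2 and 66.9 at 18 h, 61.3 and 66.4 at 24 h and 57.8 and 55.5 at 36 h. Both 24 h and both 36 h libraries were below the untreated ones (36 h: log2 fold change -0.40, SE 0.05, adjusted p = 9.4e-07, edgeR). O4AID cells had 244 CPM at 0 and 1.5 h, then at 135, 168 and 147 at 6, 10 and 24 h. The lower level was thus there at 6 h, when Lama5 stood at 251 CPM, and the 24 h change was -0.73 (interval -0.77 to -0.69).

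Per kilobase, the ratio of Lama5 to Lama1 RNA went from 2.78 ± 0.0264 (SD, n = 2) at 0 h to 5.64 ± 0.456 at 36 h in CreER cells. In O4AID cells it went from 0.772 at 0 h through 0.822, 1.55 and 1.79 to 3.35 at 24 h. Lama5 made up 72.0% of laminin alpha RNA per kilobase in both untreated CreER libraries and 83.1 and 84.8% at 36 h, and in O4AID cells 42.0% at 0 h and 75.0% at 24 h. The O4AID cells thus started with Lama1 as the larger share and ended with Lama5. Lama3, found in epithelial laminin-332, was low: it had 6.01 and 5.61 CPM in untreated CreER cells and 4.38 and 3.06 at 36 h (log2 fold change -0.62, SE 0.16, adjusted p = 0.0024, edgeR). Without replicate 2 of 36 h that change was -0.41 with an adjusted p of 0.077. In O4AID cells Lama3 had 13.6 CPM at 0 h and 15.3 at 24 h. Lama4, a chain of vascular basement membranes, was between 0.94 and 1.56 CPM in CreER cells and was not called at any time.

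**Figure D3:**
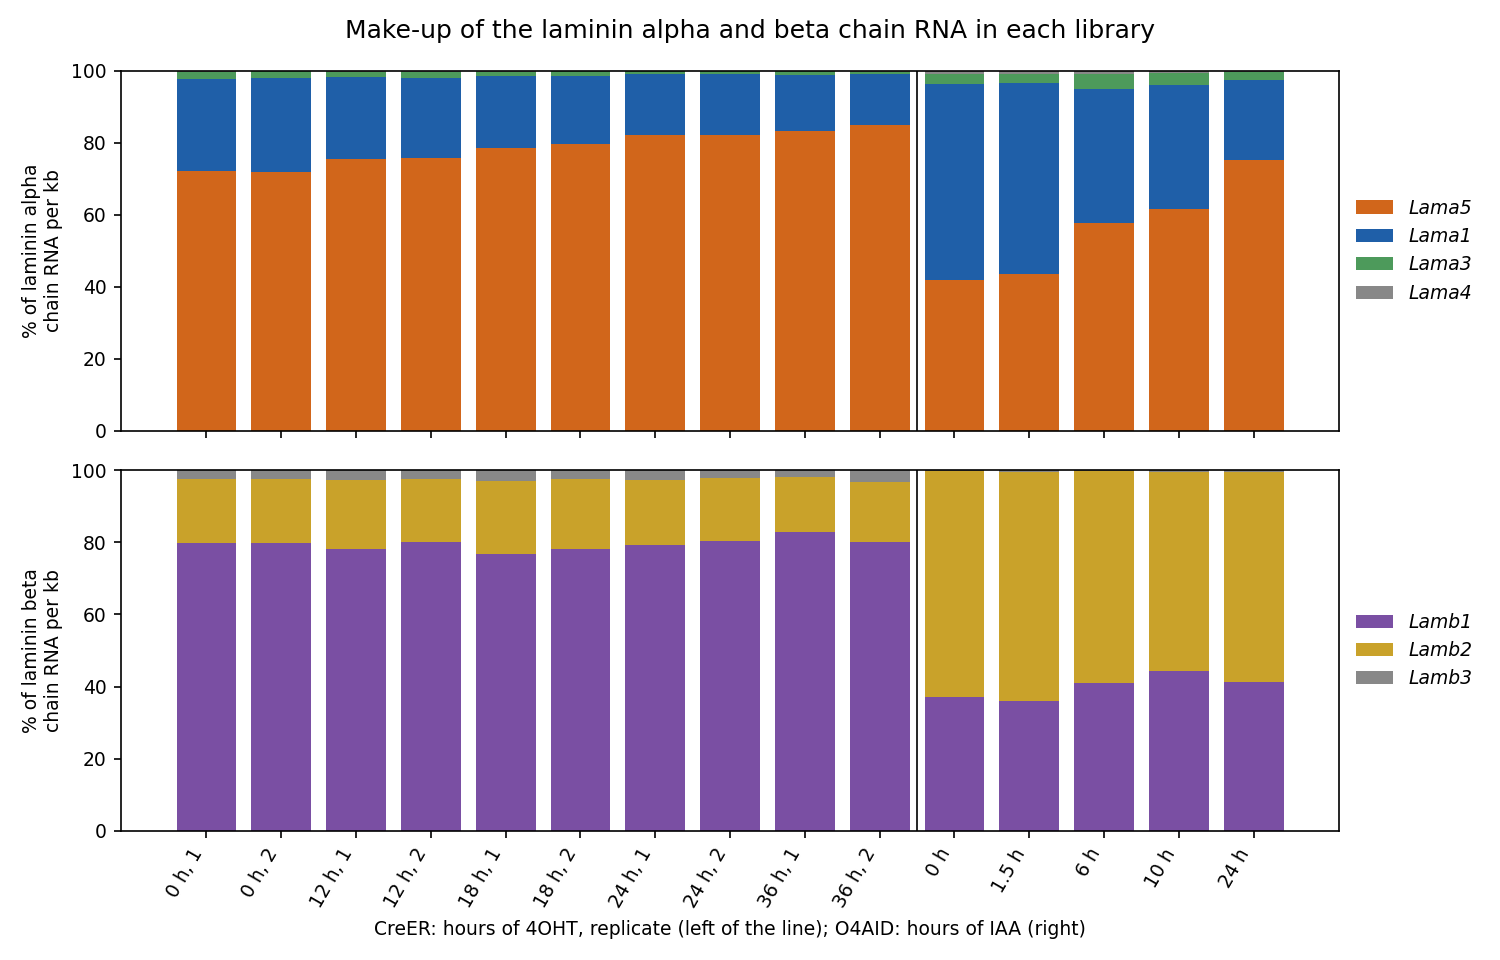
Percent of laminin alpha chain RNA (upper) and beta chain RNA (lower) per kilobase of exon made up by each gene, 1 bar per library, with the 10 CreER libraries left of the line and the 5 O4AID libraries right of it. The Lama5 share grows from 72.0% to 83.1 and 84.8% in CreER cells and from 42.0 to 75.0% in O4AID cells, and Lamb1 is the larger beta share in CreER cells and Lamb2 in O4AID cells.

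Of the beta chains, Lamb1 rose in CreER cells and was higher in O4AID cells. Lamb1, at chr12:31265234-31329644, is the beta chain of laminin-111 and laminin-511. It had 157 and 158 CPM at 0 h and 207 and 203 at 36 h (log2 fold change 0.38, SE 0.04, adjusted p = 3.8e-08, edgeR), with both 24 h libraries, at 183 and 193, in between. In O4AID cells it went from 73.9 and 70.8 CPM at 0 and 1.5 h to 88.7, 135 and 182 at 6, 10 and 24 h, a log2 change of 1.29 (interval 1.23 to 1.34). Lamb2, the beta chain of synaptic and kidney laminins, had 21.2 and 21.8 CPM in untreated CreER cells, a peak of 27.6 and 26.0 at 18 h (log2 fold change 0.32, adjusted p = 0.0040) and 23.3 and 25.7 at 36 h. Its 36 h call (0.19, adjusted p = 0.046) was lost in 13 of 16 alternative fits, at 0.11 and an adjusted p of 0.35 without replicate 2 of 36 h. In O4AID cells Lamb2 had 76.9 CPM at 0 h and 157 at 24 h (log2 change 1.02, interval 0.96 to 1.08). Lamb3, of laminin-332, was not called in CreER cells.

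The gamma chain Lamc1, shared by laminin-111 and laminin-511, went the other way from Lamb1. It had 315 and 321 CPM at 0 h, 292 and 317 at 24 h and 283 and 260.2 at 36 h in CreER cells (36 h: log2 fold change -0.23, SE 0.05, adjusted p = 0.00030, edgeR). The O4AID levels were 567, 526, 446, 464 and 421 CPM over the 5 times, with a 24 h change of -0.43 (interval -0.45 to -0.40). The O4AID level was lower than at the start at every later time.

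**Figure D4:**
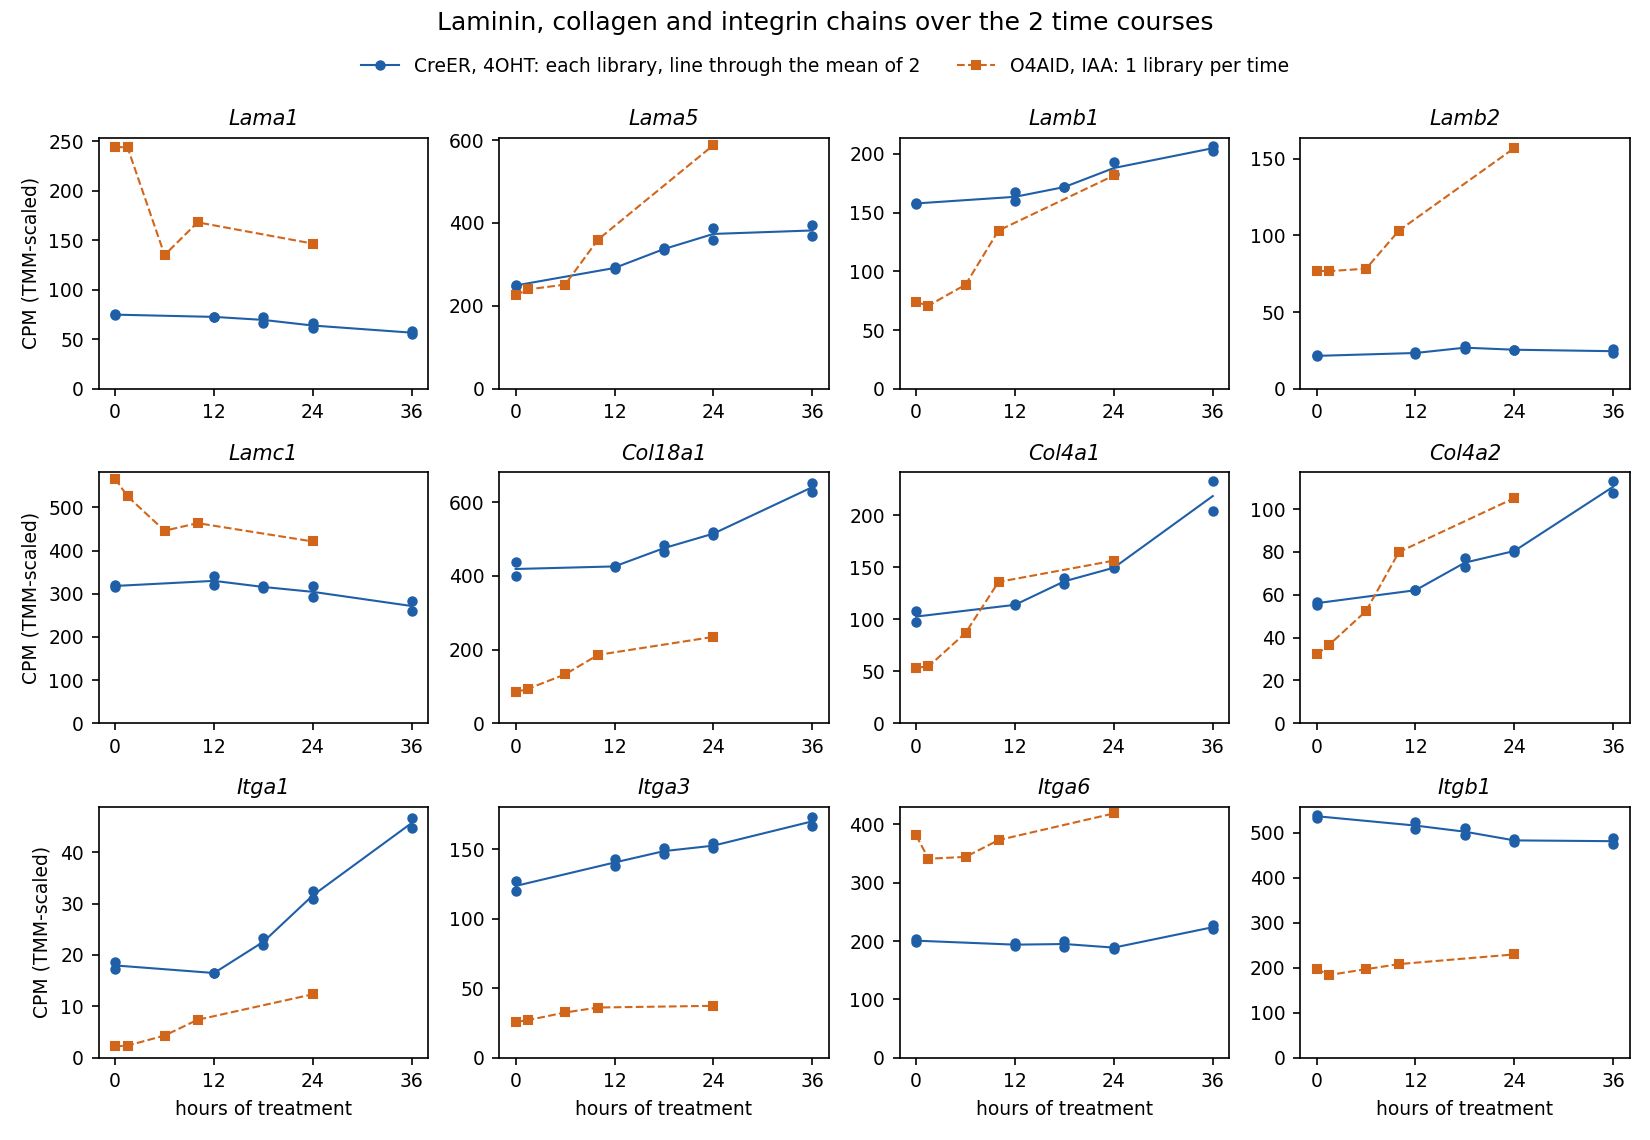
Level in CPM (y axis, starting at 0) over hours of treatment (x axis) of 12 chains in CreER cells (circles, each of 2 libraries, line through the mean) and O4AID cells (squares, 1 library per time). CPM were scaled within each time course; Col4a1, Col4a2, Col18a1, Lama5, Lamb1 and Itga1 are higher at the end in both, while Lama1 and Lamc1 end lower in both.

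Type IV collagen rose as a pair. Col4a1 (chr8:11198423-11312826) had 107 and 97.6 CPM at 0 h, 113 and 114 at 12 h, 139 and 133.5 at 18 h, 149 and 149.9 at 24 h and 204 and 232 at 36 h. Col4a2 (chr8:11312805-11449287) had 56.8 and 55.3 CPM at 0 h, 62.1 and 62.2 at 12 h, 77.1 and 72.9 at 18 h, 79.9 and 81.0 at 24 h and 108 and 113 at 36 h. For both genes each treated time lay above the untreated libraries and 36 h above 24 h. The 36 h log2 fold changes were 1.09 (SE 0.05, adjusted p = 5.3e-14) for Col4a1 and 0.98 (SE 0.05, adjusted p = 5.8e-15) for Col4a2 by edgeR, and both were called from 18 h on.

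In O4AID cells Col4a1 had 53.4, 54.6, 86.9, 136 and 156 CPM at 0, 1.5, 6, 10 and 24 h, and Col4a2 had 32.2, 36.5, 52.4, 80.0 and 105 CPM. Both were higher at 6 h and past 2-fold at 10 h, and the 24 h changes were 1.53 (interval 1.47 to 1.60) and 1.68 (1.60 to 1.76). The ratio of Col4a1 to Col4a2 per kilobase changed little, with group means of 1.61 to 1.75 over the CreER times and values of 1.32 to 1.51 in the O4AID libraries. The genes overlap by 22 exon bases at their starts, 0.295% of the Col4a1 exons. Col4a5, an X-linked chain of kidney and muscle basement membranes, was low, with 2.60 and 2.57 CPM at 0 h and 3.33 and 5.15 at 36 h (log2 fold change 0.69, SE 0.19, adjusted p = 0.0045, edgeR). Without replicate 2 of 36 h its change was 0.36 with an adjusted p of 0.21.

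Col18a1 (chr10:77052178-77166548), the highest collagen per kilobase in both untreated lines, had 437 and 400.0 CPM at 0 h, 424 and 428 at 12 h, 466 and 485 at 18 h, 509.8 and 519.5 at 24 h and 628 and 653 at 36 h. Treated libraries were above the untreated ones from 18 h on (36 h: log2 fold change 0.61, SE 0.04, adjusted p = 4.2e-12, edgeR). The O4AID levels were 84.6, 93.6, 133, 186 and 235 CPM, higher at every step, with a 24 h change of 1.46 (interval 1.41 to 1.51).

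The fibrillar collagens, the rope-forming type found mostly in connective tissue, were low in these cells, and 7 of 10 rose by 36 h with none called lower (median log2 fold change 0.57), where 19.4% of all genes were called higher and 17.2% lower. Col5a2, a chain of the collagen that seeds fibrils, had 10.2 and 10.98 CPM at 0 h and 17.1 and 19.3 at 36 h (0.77, SE 0.09, adjusted p = 1.4e-07, edgeR), and in O4AID cells 1.56 CPM at 0 h and 9.73 at 24 h. Most of the O4AID step came after 10 h, when it had 3.13 CPM. Col2a1, the main collagen of cartilage, rose to 24.7 CPM in both 24 h libraries from 14.4 and 14.7 (24 h: 0.76, adjusted p = 6.4e-08), whereas in O4AID cells it had 6.38, 9.64 and 3.78 CPM at 0, 6 and 24 h. Col11a1, another cartilage collagen chain, went from 10.1 to 22.8 CPM in O4AID cells and rose by 36 h in CreER cells (0.67, adjusted p = 0.00026).

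Col1a1, a chain of the collagen of bone and skin, differed between the lines. In CreER cells it had 2.32 and 2.06 CPM at 0 h and 2.37 and 3.79 at 36 h and was not called (0.47, adjusted p = 0.094). That value was 0.79 with an adjusted p of 0.0099 without replicate 1 of 36 h and 0.12 with 0.78 without replicate 2, so single libraries decide it. O4AID cells had 3.46, 2.49, 2.74, 1.81 and 0.71 CPM, or 162 counts at 0 h and 34 at 24 h (log2 change -1.39, interval -1.64 to -1.11).

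The fibril-associated collagens, which sit on the surface of fibrils, gave 5 of 6 called higher at 36 h (median 0.80), against 19.4% of all genes. Col12a1 had 2.00 and 2.33 CPM at 0 h and 4.42 and 5.01 at 36 h (log2 fold change 1.10, SE 0.18, adjusted p = 1.2e-05, edgeR), all treated times being above the untreated one, and at most 0.16 CPM in any O4AID library. Col16a1 was at 0.60 and 0.54 CPM at 0 h and 1.04 and 1.26 at 36 h (1.00, SE 0.32, adjusted p = 0.015). Its call was lost without replicate 2 of 0 h (0.92, adjusted p = 0.090), without replicate 2 of 36 h (0.87, 0.10) and with DESeq2 (1.00, 0.13). In O4AID cells Col16a1 had 17 counts at 0 h and 118 at 24 h, or 0.36 and 2.45 CPM. Col6a5, of the beaded filament collagens, was the only collagen called lower, from 5.13 and 4.90 CPM at 0 h to 1.69 and 3.55 at 36 h (-0.98, SE 0.20, adjusted p = 0.00056). The 36 h libraries disagreed, with -0.50 and an adjusted p of 0.051 without replicate 1, and -1.57 without replicate 2.

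The integrin with the largest rise was the collagen receptor subunit Itga1. It lies at chr13:114958079-115101964 and pairs with Itgb1 to bind type IV collagen. Its CreER levels were 17.3 and 18.6 CPM at 0 h, 16.5 in both libraries at 12 h, 21.9 and 23.3 at 18 h, 32.4 and 30.9 at 24 h and 44.7 and 46.6 at 36 h. It was below the untreated level at 12 h (-0.13, not called) and above it from 18 h on, with a 36 h log2 fold change of 1.34 (SE 0.07, adjusted p = 5.3e-15, edgeR). In O4AID cells it had 2.22, 2.37, 4.33, 7.399 and 12.4 CPM, a 24 h change of 2.05 (interval 1.83 to 2.27).

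All 3 laminin-binding alpha subunits were called higher at 36 h in CreER cells, by unequal amounts (19.4% of all genes were called higher). Itga7, the laminin receptor of muscle, had 6.09 and 5.51 CPM at 0 h and 11.9 and 12.0 at 36 h (log2 fold change 1.05, SE 0.11, adjusted p = 1.7e-08, edgeR) but 53 and 44 counts at 0 and 24 h in O4AID cells. Itga3 had 127 and 119.9 CPM at 0 h and 167 and 173 at 36 h (0.46, SE 0.04, adjusted p = 2.0e-09), and every treated library was above both untreated ones. In O4AID cells Itga3 went from 25.8 to 37.4 CPM (log2 change 0.52, interval 0.42 to 0.62). Itga6, the laminin receptor subunit that marks many stem cells, had 203 and 198 CPM at 0 h, 190.5 and 187 at 24 h and 227 and 220.3 at 36 h. It lay a little below the start at 24 h (-0.09, not called) and above it at 36 h (0.16, adjusted p = 0.0034), a call that total-count scaling ended (0.07, adjusted p = 0.24). Itga6 had 381 CPM at 0 h and 418 at 24 h in O4AID cells.

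Of the RGD-binding alpha subunits, which recognise fibronectin and vitronectin, Itgav rose and Itga5 changed little in CreER cells. In O4AID cells it was Itga5 that moved, to a lower level, and Itgav changed little. Itgav had 63.2 and 60.2 CPM at 0 h and 81.1 and 74.4 at 36 h (log2 fold change 0.34, SE 0.05, adjusted p = 8.3e-06, edgeR), and 126 and 136 CPM at 0 and 24 h in O4AID cells. Itga5, the classic fibronectin receptor subunit, had 64.3 and 58.9 CPM at 0 h and 57.7 and 53.0 at 36 h (-0.15, adjusted p = 0.042). That call was lost without replicate 1 of 0 h (-0.09, adjusted p = 0.33), without replicate 2 of 36 h (-0.10, 0.31), without either 18 h library (0.054 for each) and with DESeq2 (-0.17, 0.087). In O4AID cells Itga5 had 55.2 CPM at 0 h, 40.5 at 6 h and 40.4 at 24 h (log2 change -0.44, interval -0.52 to -0.36). Itga2b, the platelet integrin subunit, had 1.16 and 1.66 CPM at 0 h and 2.17 and 3.65 at 36 h (1.00, SE 0.28, adjusted p = 0.0081), not called without replicate 1 of 0 h (0.78, 0.067) or replicate 2 of 36 h (0.60, 0.16).

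Itga8, at chr2:12106632-12301922, showed the largest drop of any member in O4AID cells and none that was called in CreER cells. Its product is the nephronectin receptor needed for kidney formation. Its O4AID levels were 26.6, 23.8, 15.7, 7.25 and 3.01 CPM at 0, 1.5, 6, 10 and 24 h, lower at each step, with 1245 counts at 0 h and 145 at 24 h (log2 change -2.78, interval -2.97 to -2.59). In CreER cells it was low throughout, at 2.56 and 2.84 CPM at 0 h and 3.17 and 3.31 at 36 h (0.25, adjusted p = 0.29). Exons of E030013I19Rik on the opposite strand cover 5.05% of its exon bases.

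Among the beta subunits Itgb1 (chr8:128685654-128733200) fell slightly in CreER cells, from 533 and 539.7 CPM at 0 h to 487 and 474 at 36 h (log2 fold change -0.16, SE 0.04, adjusted p = 0.0017, edgeR). In O4AID cells it had 197 CPM at 0 h and 229.6 at 24 h (0.22, interval 0.18 to 0.26). Itgb3, the partner of Itgav in the vitronectin receptor, had 15.05, 12.8, 10.8, 8.47 and 6.49 CPM in O4AID cells, lower at each step (24 h: -1.10, interval -1.27 to -0.93). It was not called in CreER cells, at 4.33 and 3.65 CPM at 0 h and 4.54 and 4.38 at 36 h (0.17, adjusted p = 0.41).

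Itgb4, the partner of Itga6 in hemidesmosomes, rose in CreER cells from 9.78 and 9.36 CPM to 13.1 and 14.7 at 36 h (log2 fold change 0.54, SE 0.10, adjusted p = 8.2e-05, edgeR), and had 14.7 and 13.1 CPM at 0 and 24 h in O4AID cells. Itgb7, a leukocyte homing subunit, had 14.5 and 14.8 CPM at 0 h, 13.1 and 12.1 at 24 h and 6.91 and 8.31 at 36 h (-0.96, SE 0.10, adjusted p = 1.5e-08), so most of its fall came after 24 h. Itga9, which binds tenascin and pairs with Itgb1, fell from 24.5 and 23.0 CPM to 15.02 and 15.6 at 36 h (-0.63, SE 0.08, adjusted p = 2.9e-07). In O4AID cells Itga9 had 26 counts at 0 h and 47 at 24 h. Itgb8, an activator of latent TGF-beta, rose from 1.32 and 1.08 CPM to 2.37 and 2.38 at 36 h (0.99, adjusted p = 0.00093). It and Col6a5, Col12a1 and Col4a5 were at under 1 CPM in every O4AID library.

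Genes that act with these chains were described by lists, with no test of a list. Of 24 collagen chaperones and modifying enzymes, 7 were called higher and 1 lower at 36 h in CreER cells (median log2 fold change 0.11). These calls were 33.3% of the list, close to the 36.6% over all genes tested. Serpinh1, the collagen chaperone HSP47, rose from a mean of 61.0 to 139 CPM (1.19, adjusted p = 3.2e-16, edgeR) and stood at 59.0 and 115 CPM at 0 and 24 h in O4AID cells. Bmp1, the procollagen C-proteinase, rose by 0.98, and Plod2, a lysyl hydroxylase, was the 1 called lower (-0.17, adjusted p = 0.0018). None of the 24 was past 2-fold at 24 h in O4AID cells, where 7.0% of all genes were.

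Of 18 tested basement membrane and matrix glycoproteins outside the named families, 9 were called higher and 3 lower at 36 h (median 0.21), or 50% and 16.7%, against 19.4% and 17.2% of all genes. Hspg2, the proteoglycan perlecan, rose by 0.69 (adjusted p = 2.2e-12, edgeR) and went from 265 to 264 CPM in O4AID cells. The nidogens, which link laminin to type IV collagen, split: Nid1 rose (0.40, adjusted p = 1.4e-07) and Nid2 fell (-0.53, adjusted p = 9.8e-09), while in O4AID cells the 24 h changes were -1.15 and -0.91. Fn1, fibronectin, was not called (-0.02) and had 718 and 458 CPM in O4AID cells at 0 and 24 h. Of 20 such genes in O4AID cells, 1 was past 2-fold higher at 24 h, Frem2 (4.35), and 2 were lower, Nid1 and Spp1 (-1.46), against 4.06% and 2.95% of all genes.

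Of 21 adaptors of integrin adhesion, 11 were called higher and 2 lower at 36 h (median 0.25), or 52.4% and 9.52%, against 19.4% and 17.2% of all genes. Src at 0.69, Fermt1 at 0.65 and Tln1, talin, at 0.56 were among those that rose, and Actn4 fell (-0.45). In O4AID cells at 24 h Zyx was past 2-fold higher (1.11) and Fermt3 lower (-1.23). Each was 4.76% of the list, beside 4.06% of all genes higher and 2.95% lower, and the list median was -0.05. Of 11 proteases and inhibitors at the cell surface, 8 were called higher (72.7%) and none lower at 36 h (median 0.58), and Mmp2 was at -0.23 (adjusted p = 0.051, edgeR). Plat, Mmp15 and Timp3 rose by 1.20, 1.10 and 0.62 and were 1.81, 2.93 and 2.83 higher in O4AID cells at 24 h, where Mmp2 was -1.34. These 3 higher and 1 lower were 27.3% and 9.09% of the list, against 4.06% and 2.95% of all genes.

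Markers of other cell types moved over the same hours. All 9 trophectoderm markers were called higher at 36 h in CreER cells (19.4% of all genes were), and their summed level went from 273 and 284 to 566 and 619 CPM, and from 25.4 to 93.5 CPM in O4AID cells at 24 h. Of the 9, 3 were past 2-fold higher in O4AID cells at 24 h (median 0.95), against 4.06% of genes. Of 8 tested primitive endoderm markers 3 were called higher at 36 h, Gata6 (2.61), Amn (1.71) and Dab2 (1.51), and 1 lower, Sox7 (-1.70). Their summed level over 9 genes went from 19.2 and 20.4 to 43.6 and 43.9 CPM in CreER cells and from 10.6 to 43.9 CPM in O4AID cells, with Foxa2 and Sox17 under 1 CPM on average at 0 and 36 h. In O4AID cells at 24 h 3 of these 9 were past 2-fold higher (median 0.43). The naive ESC markers summed to 2412 and 2501 CPM at 36 h in CreER cells and 1544 CPM at 24 h in O4AID cells. Of these 8 markers, 2 were called higher and 5 lower at 36 h in CreER cells (median -0.16), against 19.4% and 17.2% of all genes. In O4AID cells all 8 were past 2-fold lower at 24 h (median -2.02), against 2.95% of genes. Fibroblast markers summed to 4.6 to 5.9 CPM in every CreER library and 37.0 to 53.2 CPM in O4AID cells, where Pdgfrb alone had 37.6 of 38.6 CPM at 0 h. The fibroblast genes Dcn, Lum, Postn, Twist2, Prrx1 and S100a4 had at most 17 counts in any library. The part of other cell types in the changes of collagens, laminins and integrins was not tested.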

How the data were processed

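Per the labels and the study's methods, the authors trimmed reads with Trim Galore 0.1.4, aligned them to GRCm38 (mm10) with TopHat2 2.1.0 and counted them per gene with featureCounts 1.5.1. The deposited files hold raw counts for each of 15 libraries. The strand and multimapping settings are not given in the sources used here, so reads from genes on opposite strands may be shared, over at most 7.66% of the exon bases of any member named. A deposited matrix holds a TMM-scaled signal, equal to the counts divided by 1 factor per library, and served only to choose the members. The 92 spike-in entries held 0 reads, and rows with no symbol held 0.0412% of reads.

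CreER counts (10 libraries, 18969 genes after edgeR's low-count filter) were TMM-scaled and tested against 0 h with edgeR 4.0.16's robust quasi-likelihood test and Benjamini-Hochberg adjustment; SE is the size of the log2 fold change over the square root of F. O4AID libraries were TMM-scaled together and compared as log2 ratios of CPM + 1, with intervals from Wilson limits of both counts that cover counting error only. Simulated-replicate tests were not used. RPKM are CPM per kilobase of exon length in the count files, with all 15 libraries scaled together. The code was tested on simulated data. Replicate numbers did not pair the libraries.

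The members and gene lists were chosen with earlier results of these data known. Members were named if they are basement membrane chains or integrin subunits known from ESCs, or were among the 5 largest rises or falls of each family at CreER 36 h (called, both libraries on 1 side, mean of at least 50 counts) or at O4AID 24 h (past 2-fold, mean of at least 50 counts); Col2a1, Col5a3, Col9a2, Col11a1, Itgb8, Lama4 and Lamb3 were added after their values were seen. The values of 1 member are not reported here, though counts and medians over the members include it. Alternatives were RLE, total-count scaling, other filters, a replicate block, DESeq2 1.42.0, each library left out, and pseudocounts of 0.1 and 5 CPM.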

Additional observations from a re-analysis of the deposited data

Results flagged for a closer look

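At 24 h, 13 of the 63 members went one way in CreER cells, with both 24 h libraries apart from both 0 h libraries, and the other way in the O4AID library, with a 95% counting interval that did not reach 0. The difference was not tested, since O4AID has 1 library per time. Equal hours of treatment are also unequal times since loss of OCT4. By the paper's blots IAA removed tagged OCT4 within hours, while gene deletion took more than a day. In CreER cells Pou5f1 RNA was still at 137 CPM at 24 h, against 327 at 0 h. Values are changes on the log2(CPM + 1) scale, and those of the CreER libraries are against the 0 h mean. The collagens lower in O4AID cells and higher in CreER cells were Col13a1 at -0.69 (CreER 0.18 and 0.26), Col1a1 at -1.39 (CreER 0.20 and 0.47), Col2a1 at -0.63 (CreER 0.73 and 0.73), Col5a1 at -0.50 (CreER 0.29 and 0.37) and Col9a2 at -0.42 (CreER 0.63 and 0.49). The integrin subunits of that pattern were Itga10 at -0.32 (CreER 0.12 and 0.11) and Itgb4 at -0.16 (CreER 0.35 and 0.37). The reverse pattern, higher in O4AID cells, held for Col26a1 at 0.53 (CreER -0.14 and -0.10), Itga6 at 0.14 (CreER -0.07 and -0.10), Itga9 at 0.34 (CreER -0.34 and -0.18), Itgb1 at 0.22 (CreER -0.14 and -0.16), Itgb1bp1 at 0.25 (CreER -0.16 and -0.08) and Lama3 at 0.15 (CreER -0.65 and -0.51). Of the 13, Itga9 and Itga10 had under 50 counts in both O4AID libraries. The intervals cover counting error only, and those of Itgb4 and Lama3 came close to 0, at -0.01 and 0.01. Over 3 alternative runs the O4AID value was -0.17 to -0.05 for Itgb4 and 0.12 to 0.26 for Lama3, so the direction of Itgb4 is weak. Col13a1, Col1a1, Col26a1, Itga6, Itga10 and Itgb1bp1 were not called at 24 h in CreER cells. Among all 63 members both 24 h libraries lay above both 0 h libraries for 39 and below for 11. The share of all genes with the opposite pattern was not counted, so the 13 have no background beside them. Nor was the share of all genes above or below in this way, so the 39 and 11 have none either.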

How the results depend on the processing

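The number of members called in CreER cells was 1, 12, 26 and 39 at 12, 18, 24 and 36 h and 19 from 24 to 36 h. Leaving out 1 library at a time gave 0 to 2, 10 to 14, 16 to 27, 31 to 38 and 7 to 19. At 12 h total-count scaling gave 0 and no filter gave 2. From 24 to 36 h DESeq2 gave 11. With the replicate block the counts were 1, 12, 27, 39 and 19; the numbers do not pair the libraries (correlation of deviations -0.021 to 0.050). Members past 2-fold in O4AID cells numbered 3, 1 and 9 at 1.5, 6 and 10 h with a pseudocount of 0.1 CPM, against 0, 0 and 5, and 8 at 24 h with one of 5 CPM, against 14. The laminin median at CreER 36 h turned from 0.08 to -0.0041 with total-count scaling. Apart from these and from libraries left out, counts stayed within 1.5 times of the main ones. Total-count scaling moved the share of higher calls among all genes from 65.3 to 36.9% at 12 h and from 51.0 to 61.2% at 24 h. Of the named members' 36 h values none changed sign under any alternative run. Of the members 18 had a mean under 50 counts over the CreER libraries, of which 8 were called at 36 h, all higher (Col1a2, Col6a1, Col8a1, Col11a2, Col16a1, Col20a1, Itga11 and Itgb8), and 14 had under 50 counts at both 0 and 24 h in O4AID cells, where no replicate stands behind any value.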
